A study of Bactrocera dorsalis with 4 samples.

Results

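The known miRNAs listed in the ovaries of the oriental fruit fly *Bactrocera dorsalis* were compared with those listed in its testes. The members were every name that the known miRNA list of at least 1 gonad carried with the miRBase status Yes (the sequence is in miRBase) or Diff (it differs from the miRBase entry), and 143 of the 163 such names of the whole series met this rule. Small RNA of adults aged 12 days was sequenced in 4 libraries, from ovaries, testes, female bodies without ovaries and male bodies without testes. The flies were unmated, reared on an artificial diet, separated by sex after emergence and dissected when mature, and the labels named no genotype, treatment or strain. There was 1 library for each tissue and no replicate, so the spread between samples was unknown and no test between the gonads was made. A whole dissected gonad holds germ cells, somatic cells and the sheath around them, and the lists do not tell these apart.

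An animal miRNA is cut from a hairpin precursor, and its mature strand can come from the 5p arm or the 3p arm of that hairpin. The strand then guides a silencing complex to messenger RNAs, mainly through its seed, bases 2 to 8, which pair with the target. In *Drosophila*, miRNAs act in germline stem cells, in follicle cells and in the clearance of maternal messages, and the testis expresses many young, fast-evolving miRNAs of its own.

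The lists gave names, sequences and positions but no amounts. A name was therefore detected or not, and absence from a list was not a level of 0. The ovary list held 169 entries with the status Yes or Diff and the testis list 187, and 31.4% and 30.5% of them were marked Yes. An entry is 1 line with 1 sequence at 1 position, and 2 lines of each list repeated another line. Sequences were 18 to 25 nt long in both, with a median of 22 nt. By the study's own account the ovary library kept fewer clean reads than the testis library. Depth and tissue cannot be told apart here.

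The ovaries listed 122 names and the testes 134, and 113 were common to both. The shared names were 79.0% of the 143 (95% exact binomial interval 71.4% to 85.4%). This interval and those that follow treat the listed names or sequences as independent draws. They leave out depth and the spread between samples. The shared names were 92.6% of the ovary names and 84.3% of the testis names. A further 9 names, 6.29% of the 143, were listed in ovaries and not in testes, and 21 names, 14.7%, in testes and not in ovaries. With entries on *B. dorsalis* contigs alone, these counts were 7 and 11. The 7 are not all among the 9, since 4 of the 9 had no contig position. They include miR-5-3p and miR-989-3p, which testes listed under 2R and ovaries also on a contig. For scale, the bodies of the 2 sexes shared 124 of 150 names, 82.7% (75.6% to 88.4%), an interval that overlaps that of the gonads. Of the 113 names common to the gonads, 106 were listed in both bodies as well. Names in the same gonad list share a library and its depth, so they are not independent points.

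The sequences of 7 of the 9 names listed in ovaries and not in testes are printed because the detection difference rests on them, and miR-137-3p and miR-312-3p are named only. Each is written 5′ to 3′ as DNA with its seed in capitals.
miR-124-3p: tAAGGCACgcggtgaatgccaaa
miR-219: tGATTGTCcaaacgcaattct
miR-33-5p: tTGCATTGtagtcgcattgt
miR-956-5p: gTGTTTGGaatggtctcgctggc
miR-9369-5p: aGCGAGAGggtattatgtattc
miR-973-3p: tCTGTTCAttctccgacacaag
miR-982-5p: tCCTGGACaaatatgaagtaaa

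miR-124-3p, a miRNA of neurons from flies to mammals, was placed on contig JFBF01000080.1 (6473 to 6555, minus strand) and was listed in female bodies too. Its absence from testes concerned the form and not the miRNA, since a shorter form named miR-124 was listed in both gonads and had the same first 18 bases. miR-137-3p, also a neural miRNA, lay on JFBF01000025.1 (1174569 to 1174693, minus strand), was marked Yes and was listed in both bodies. miR-219, known from the vertebrate brain, lay on JFBF01000126.1 (423692 to 423769, minus strand) and was likewise in both bodies. miR-33-5p, which in *Drosophila* and mammals sits in the gene for the lipid regulator SREBP, lay on JFBF01000286.1 (72318 to 72383, plus strand) and was shared with female bodies. miR-956-5p (JFBF01000088.1, 1237612 to 1237711, minus strand) was in both bodies, and the 3p arm of the same miRNA was in both gonads.

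The other 4 ovary names were placed under chromosome arm names of *Drosophila melanogaster*, whose build is not given in the sources used here, and no gene annotation was used to place any position in an exon or intron. miR-9369-5p (X, 19445351 to 19445412, plus strand), miR-973-3p (X, 19445561 to 19445661, plus strand) and miR-982-5p (X, 4259839 to 4259931, minus strand) belong to X-linked groups that in *Drosophila* are expressed mainly in testis. In *B. dorsalis* all 3 were listed in ovaries and not in testes. By the study's own account, their expression was low in every sample. miR-973-3p and miR-982-5p were in no body list, and miR-9369-5p was in that of males. miR-312-3p (2R, 16471561 to 16471626, minus strand) belongs to the miR-310 cluster and was in both bodies. Its seed, ATTGCAC, was listed in testes under miR-310-3p, miR-311-3p and miR-92b-3p, so a seed was common to the gonads where the name was not. Across the 9 names, the seed of miR-124-3p and that of miR-312-3p were listed in testes under another name, and 7 seeds were not.

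The names listed in testes and not in ovaries are given in 3 parts. These are mirtrons, second arms of miRNAs that both gonads listed, and other miRNAs without an entry marked Yes or Diff in ovaries. The mirtrons had no such entry in ovaries either. The mirtrons are given first, as mature sequences with the seed in capitals.
miR-1003-3p: tCTCACATttacatattcaca
miR-1004-3p: tCTCACATcacttccctcacag
miR-1012-3p: tTAGTCAAagattttccccatag

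A mirtron is a short intron that the splicing machinery frees and that folds into a hairpin without being cut by Drosha. miR-1003-3p (3R, 20484327 to 20484382, plus strand), miR-1004-3p (2L, 3767621 to 3767688, plus strand) and miR-1012-3p (3R, 22687071 to 22687129, minus strand) are the mirtrons of *Drosophila* that the lists held. All 3 were in testes and none in ovaries or female bodies, and miR-1012-3p was also in male bodies. miR-1003-3p and miR-1004-3p shared the seed CTCACAT, which no ovary entry had. Their precursors, taken from the study's supplementary sequences, are shown because their ends are those of introns. Capitals mark the listed mature strand.
miR-1003 precursor: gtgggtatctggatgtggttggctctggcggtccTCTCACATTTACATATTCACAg
miR-1004 precursor: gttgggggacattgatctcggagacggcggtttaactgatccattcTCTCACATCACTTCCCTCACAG
miR-1012 precursor: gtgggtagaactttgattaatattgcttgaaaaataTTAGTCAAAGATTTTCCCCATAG

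The 3 precursors were 56, 68 and 59 nt long. Each began with GT and ended with AG on the strand of the miRNA, the bases at the ends of most introns. A precursor sequence was at hand for 105 of the 163 precursor positions in the gonads, and these were the 3 of the 105 (2.86%) with both ends. All 3 positions were under *Drosophila* arm names and not on *B. dorsalis* contigs, and the 3 were chosen as known *Drosophila* mirtrons. Intron ends were thus fixed in advance. The match describes the letters and is no evidence of splicing in *B. dorsalis*.

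A further 8 testis names were the second arm of a miRNA whose first arm was in both gonads. Their mature sequences were as follows, with the seed in capitals.
miR-11-5p: cAAGAACTttctctgtgacccg
miR-92b-5p: aGGTCGTGcctggtgcttaatt
miR-314-5p: cTTGTTTGgcttcgaact
miR-958-5p: aGTAGAATagcaggcttatcaca
miR-iab-4-3p: tATACCTTcagtatacgtaact
miR-100-3p: cAAGACCGgcattatgggagtc
miR-193-3p: tACTGGCCtactaagtcccaac
miR-932-3p: tGCAAGCAttgtggaagtgat

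Among these 8, the first 5 were in no library but testes. Of the 5, miR-314-5p and miR-iab-4-3p were marked Diff and did not match the precursor sequence at their position exactly. miR-11-5p (3R, 17448219 to 17448293, minus strand) comes from the hairpin of miR-11, which in *Drosophila* restrains cell death genes. miR-92b-5p (JFBF01000012.1, 2827283 to 2827355, minus strand) is the partner of miR-92b-3p, which in *Drosophila* muscle acts on the factor Mef2. miR-314-5p lay on 3L (11766112 to 11766201, plus strand) and miR-958-5p on 3L (22662389 to 22662480, minus strand). miR-iab-4-3p (JFBF01000063.1, 390040 to 390113, minus strand) comes from the Hox cluster, where miR-iab-4 acts on *Ultrabithorax* in *Drosophila*. The other 3, miR-100-3p (JFBF01000010.1, 2862103 to 2862188, plus strand), miR-193-3p (JFBF01000072.1, 185556 to 185671, minus strand) and miR-932-3p (JFBF01000243.1, 294711 to 294801, minus strand), were in both bodies. miR-100 belongs with let-7 and miR-125, which time metamorphosis in *Drosophila*, and lay 205 bases from the start of let-7 and 543 from that of miR-125. All names of these neighbours were in both gonads.

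The hairpin of miR-92b shows what a second arm is. Both listed strands are in capitals, the testis strand first and the strand of both gonads second.
miR-92b precursor: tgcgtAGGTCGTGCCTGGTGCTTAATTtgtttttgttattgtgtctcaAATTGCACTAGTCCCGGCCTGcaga

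The testis strand took bases 6 to 27 of the 73 and the strand of both gonads bases 49 to 69. Over all miRNAs with an arm in the name, 94 were listed in the gonads, and 67 had the same arms in both. Both arms were listed for 29 miRNAs in ovaries and for 36 in testes, and 28 of these were common. An arm was added in testes for the 8 miRNAs above and in ovaries for miR-956 alone. No miRNA had its 5p arm in 1 gonad and its 3p arm in the other, so no switch of arm was seen.

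The remaining 10 testis names had no entry of the same miRNA marked Yes or Diff in ovaries, and the sequences that can be shown are these, again with the seed in capitals.
miR-263b: cTTGGCACtgggagaattcaca
miR-315-5p: tTTTGATTgttgctcagaaagcc
miR-87: tTGAGCAAaatttcaggtgtgt
miR-929-5p: aAATTGACtctagtagggagt
miR-965-3p, longer form: tAAGCGTAtagcttttcccc
miR-965-3p, shorter form: cGTATAGCttttccccttt
miR-iab-8-5p: tTACGTATactgaaggtat
miR-975-5p: tAAACACTtcctacatcctgtat
miR-983-5p: aTAATACGtttcgaactaatg
miR-4968-3p: aACAACAGcagcagcagca

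The first 5 names were listed in both bodies as well, and their roles below are known from *Drosophila*. miR-263b, which protects sense organ cells from death, lay on JFBF01000044.1 (704216 to 704279, minus strand). miR-87, needed for regrowth of dendrites, lay on JFBF01000447.1 (75690 to 75771, minus strand). miR-315-5p, which raises Wingless signalling, lay on JFBF01000100.1 (130721 to 130853, plus strand), and miR-929-5p on JFBF01000017.1 (1951097 to 1951184, minus strand). miR-965-3p, a regulator of histoblasts, had 2 forms in testes and none in ovaries, on JFBF01000074.1 (28929 to 28950, plus strand) and JFBF01000190.1 (134032 to 134123, plus strand). In letters, the second form began further along the run of bases of the first, so the seeds differed. The forms lay on different contigs, and whether they share a hairpin was not tested.

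miR-iab-8-5p (JFBF01000063.1, 390044 to 390122, plus strand), whose loss makes *Drosophila* adults sterile, was in both bodies and in testes. Its precursor lay on the strand opposite that of miR-iab-4, with starts 4 bases apart. The printed miR-iab-8-5p was complementary to miR-iab-4-3p over all of its 19 bases, and both were listed in testes and not in ovaries, while miR-iab-4-5p was in both gonads. miR-975-5p (X, 19452786 to 19452876, plus strand) and miR-983-5p (X, 4262516 to 4262614, minus strand) belong to the X-linked groups named above for ovaries. miR-975-5p was also in male bodies and miR-983-5p in both bodies. miR-4968-3p (3L, 11545639 to 11545793, minus strand) ended in a repeat of CAG and was shared with male bodies. miR-310-3p (2R, 16471257 to 16471345, minus strand) was shared with female bodies. Of the 21 testis names, miR-310-3p was the single one with a seed that ovaries also listed.

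**Figure D1:**
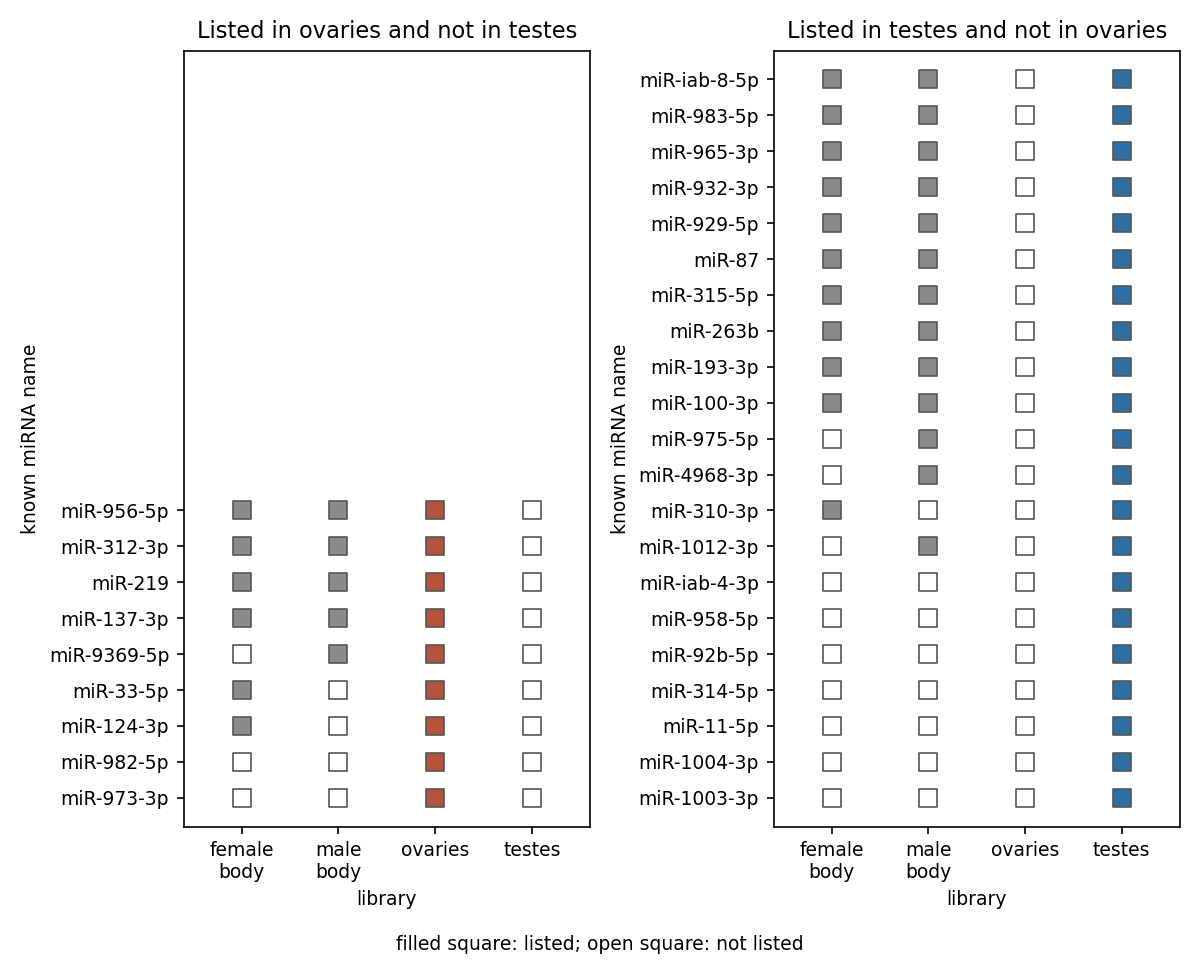
Rows are the known miRNA names listed in 1 gonad and not in the other (9 for ovaries at left, 21 for testes at right), columns are the 4 libraries, and a filled square marks a listed name. Of the 21 testis names 10 were in both bodies and 7 in no body, and of the 9 ovary names 4 were in both and 2 in none.

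The same names were then looked up in the body lists. Of the 9 ovary names, 4 were listed in both bodies, 3 in 1 body and 2 in none. Of the 21 testis names, the counts were 10, 4 and 7. The 7 names listed in testes alone among the 4 libraries were the mirtrons miR-1003-3p and miR-1004-3p and the 5 second arms named first above. For each of the 5 arms the partner arm was in both gonads. The names whose miRNA had no entry marked Yes or Diff in the other gonad numbered 7 for ovaries and 13 for testes. Entries marked New carried the same miRNA number there in 1 case each, as mir-219-p3 in testes and mir-983-1-p3 in ovaries. The first lay on JFBF01000148.1, while miR-219 lay on JFBF01000126.1. The second lay on JFBF01000039.1, while miR-983-5p had a position on X alone. Whether either is the same miRNA was not tested.

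Under *Drosophila* arm names, chromosomal neighbours were split between the gonads at 3 places. On X, miR-973-3p and miR-9369-5p of the ovary list had starts 210 bases apart, and miR-975-5p of the testis list lay 7225 bases from miR-973-3p. miR-976-3p, 142 bases beyond miR-975-5p, was in both gonads. Elsewhere on X, miR-982-5p of ovaries and miR-983-5p of testes had starts 2677 bases apart. On 2R, miR-312-3p of ovaries and miR-310-3p of testes had starts 304 bases apart, with miR-311-3p of both gonads between them. In *Drosophila* such neighbours are usually made from 1 transcript. None of the names listed in 1 gonad here had a position on a *B. dorsalis* contig, so the distances hold for the *Drosophila* arm positions alone. Whether these miRNAs lie together or share a transcript in *B. dorsalis* was not tested.

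**Figure D2:**
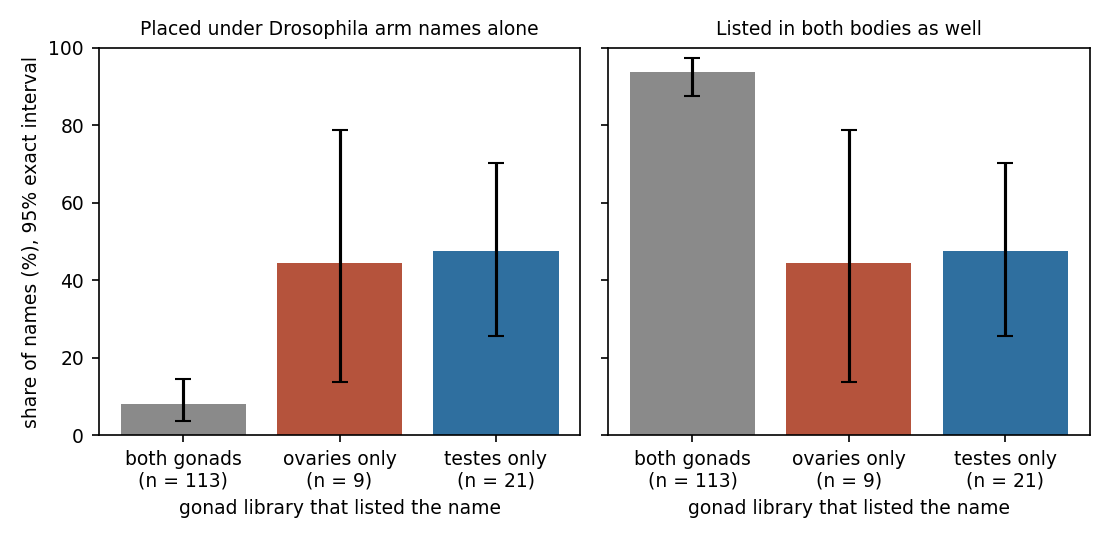
Bars give the share of names (percent) placed under *Drosophila* arm names alone (left) and listed in both bodies (right) for names of both gonads, ovaries only and testes only, and error bars are 95% exact binomial intervals. The arm-name share was 7.96% for names of both gonads, 44.4% for ovaries only and 47.6% for testes only.

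Names listed in 1 gonad were more often placed under *Drosophila* arm names alone than the shared names. Of the 113 shared names, 9 had *Drosophila* arm names as their sole position, a share of 7.96% (3.71% to 14.6%). The share was 4 of 9 for ovaries, 44.4% (13.7% to 78.8%), and 10 of 21 for testes, 47.6% (25.7% to 70.2%). Shared names drew on 160 sequences from both gonad lists, against 9 sequences for ovary names and 22 for testis names. They thus had more chances of a contig position or an entry marked Yes. The intervals are no test of a difference. Listing in both bodies went the other way, at 93.8% (87.7% to 97.5%) of shared names, 44.4% (13.7% to 78.8%) of ovary names and 47.6% (25.7% to 70.2%) of testis names. The share with an entry marked Yes was 41.6% for shared names and 33.3% for each gonad. The 5p arm made up 48 of the 113 shared names, 4 of the 9 ovary names and 9 of the 21 testis names. A first base T, the base that the silencing complex favours as U in RNA, was found in 54.4% of the sequences of shared names, in 7 of 9 for ovaries and in 12 of 22 for testes.

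Many names had more than 1 sequence, so the forms of a name were compared as well. The gonads shared 142 of 191 distinct sequences, 74.3% (67.5% to 80.4%), with 15 in ovaries only and 34 in testes only. Of these, 6 in ovaries and 12 in testes were extra forms of shared names. None of the one-gonad sequences was listed as New in the other gonad. For 97 of the 113 shared names the set of sequences was identical, a share of 85.8% (78.0% to 91.7%), and 74 of the names had a single form in both. Sets of several forms recurred too, and miR-2b-3p, miR-2a-5p and miR-79 each had the same 3 forms in both gonads. In all 16 names that differed, the set of 1 gonad held that of the other, so no name had forms entirely of its own in each gonad.

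**Figure D3:**
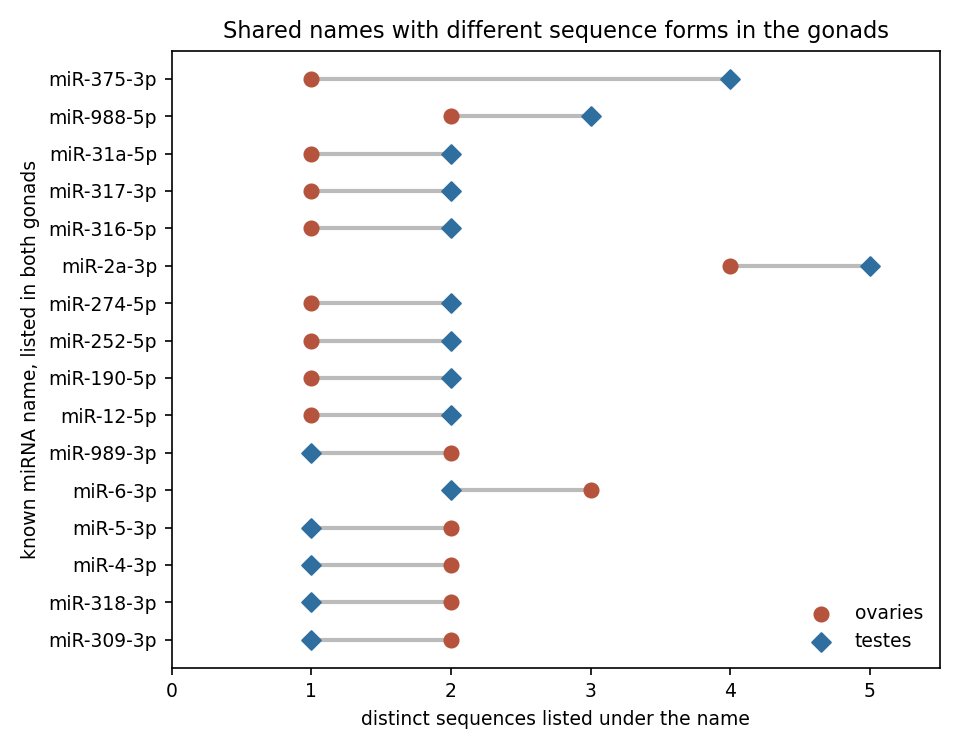
Points give the number of distinct sequences listed in ovaries (circles) and in testes (diamonds) for the 16 shared names whose sets differed, and a line joins the counts of a name. Ovaries had more for 6 names and testes for 10, with the widest gap at miR-375-3p (1 against 4).

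The 6 names with an extra form in ovaries were miR-309-3p, miR-4-3p, miR-5-3p, miR-6-3p, miR-318-3p and miR-989-3p. All 6 belong to the group of *Drosophila* ovary miRNAs counted further on, which was drawn up with earlier results of these data known. The group had 8 of the 113 shared names, and its other 2, miR-5-5p and miR-994-5p, had 1 form in each gonad. Over all shared names, 6 of 113 (5.31%) had more forms in ovaries. In *Drosophila* the miR-309 cluster clears maternal messages, miR-318 acts in follicle cells that make the eggshell, and miR-989 acts in the migration of border cells. The numbers were 2 forms against 1, and 3 against 2 for miR-6-3p. miR-318-3p is shown because its extra form changed the seed, with the form of both gonads first and the ovary form second.
miR-318-3p, both gonads: tCACTGGGctttgtttatctca
miR-318-3p, ovaries: tCAGTGGGctttgtttatctga

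The shared form lay on JFBF01000147.1 (463595 to 463696, minus strand) and the ovary form on 3R (6234024 to 6234091, plus strand). Counted from the 5′ end of the shared form, the changes were C4G, inside the seed, and C21G. The ovary form of miR-5-3p also had another seed, since it began 5 bases further along. In the other 4 names the seed was that of the shared form. The extra ovary forms had 0 to 2 substitutions and were all marked Diff, 3 of the 6 lay on contigs, and 4 were in neither body. The contig spans were short for miR-4-3p (JFBF01000201.1, 472414 to 472441) and miR-5-3p (JFBF01000072.1, 1323858 to 1323879). That of miR-989-3p (JFBF01001905.1, 9220 to 9349) was longer. None was the position of the shared form. Whether these forms come from the hairpin of the shared form was not tested.

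The 10 names with extra forms in testes were miR-12-5p, miR-190-5p, miR-252-5p, miR-274-5p, miR-2a-3p, miR-316-5p, miR-317-3p, miR-31a-5p, miR-375-3p and miR-988-5p. They had 12 extra forms, of which 6 changed the seed. miR-375-3p, known from hormone-secreting cells of vertebrates, had 1 form in ovaries and 4 in testes, with 5 in female and 4 in male bodies. The seed changes of 4 names are shown, with the form of both gonads before each testis form.
miR-12-5p, both gonads: tGAGTATTacatcaggtactggt
miR-12-5p, testes: tGATTATTacatcaggtactggtat
miR-190-5p, both gonads: aGATATGTttgatattcttggttg
miR-190-5p, testes: aGAGATGTttgatattcttggta
miR-317-3p, both gonads: tGAACACAgctggtggtatctc
miR-317-3p, testes: tGAACACCgctggtggtatca
miR-375-3p, both gonads: tTTGTTCGtttggcttaagtt
miR-375-3p, testes, shorter form: tTTTTTCGtttggcttaag
miR-375-3p, testes, longer form: tTTTTTCGtttggcttaagttt

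The changes in the seed were G4T in miR-12-5p, T4G in miR-190-5p, A8C in miR-317-3p and G4T in both forms of miR-375-3p, counted from the 5′ end of the form of both gonads. The testis form of miR-31a-5p began 5 bases further along and also had T11G, which fell inside its own seed. The first base changed in miR-316-5p (T1G), in the fourth form of miR-375-3p (T1G) and, in ovaries, in miR-309-3p (T1G), with the seed kept in each. The other changes in testis forms lay at position 11 or later, as in miR-274-5p (A11C and G20A), miR-988-5p (A17G), miR-316-5p (T20G), miR-317-3p (T21A), miR-375-3p (T21C), miR-252-5p (G22C), miR-190-5p (T23A) and miR-2a-3p (C23T). All 12 testis forms were marked Diff, 9 of them lay under *Drosophila* arm names and 7 were in both bodies. Contig spans were short for miR-316-5p (JFBF01000085.1, 382745 to 382787) and the longer form of miR-375-3p (JFBF01000013.1, 2364227 to 2364256). Whether the testis forms come from the hairpin of the shared form was not tested.

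Placement was compared over sequences as well. Of the 142 sequences common to the gonads, 26 were under arm names alone, 18.3% (12.3% to 25.7%). The share was 7 of 15 for ovaries, 46.7% (21.3% to 73.4%), and 19 of 34 for testes, 55.9% (37.9% to 72.8%). These intervals treat the sequences of 1 library for each gonad as independent draws and are no test of a difference. Among the extra forms of shared names alone, 3 of 6 in ovaries and 9 of 12 in testes were under arm names. The part of placement in the difference between the gonads was not tested. On contigs of *B. dorsalis* alone, 1 shared name had more forms in ovaries and 2 had more in testes.

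**Figure D4:**
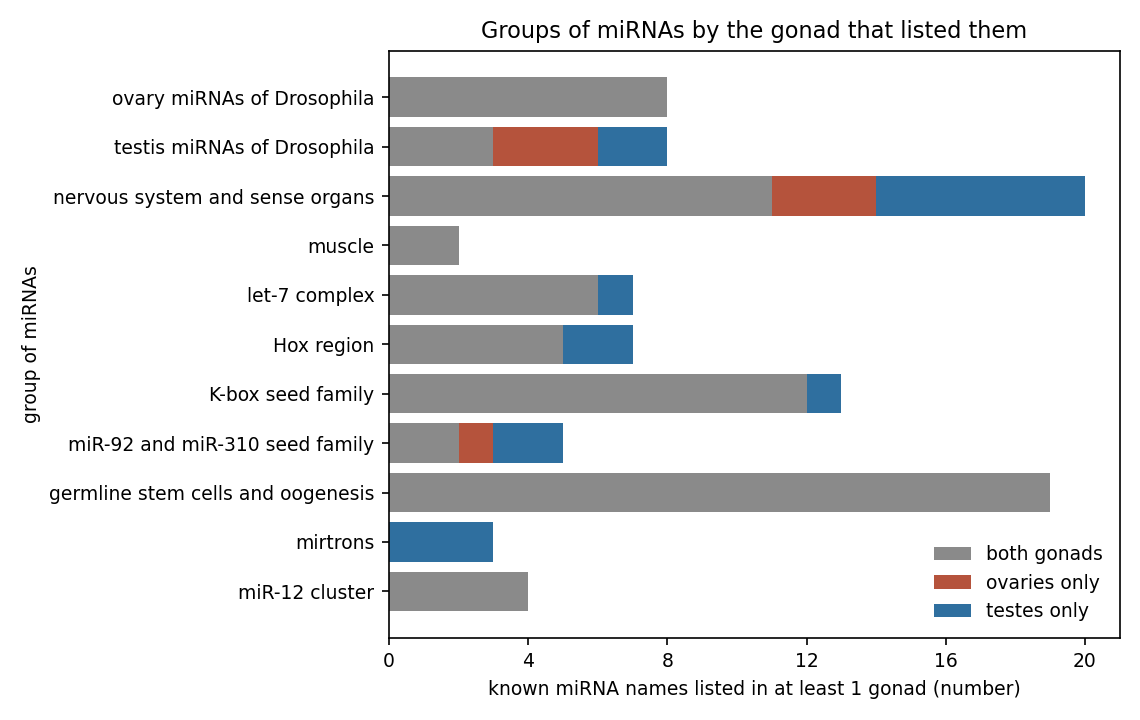
Bars give the number of known miRNA names in the gonads for 11 groups of miRNAs, split into both gonads, ovaries only and testes only. The germline group (19 names) and the ovary group (8 names) were wholly shared, and the mirtrons (3 names) were in testes only. The groups were drawn up with earlier results of these data known. The mirtron group holds only mirtrons found in these lists, so its split is no independent result.

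Groups of miRNAs with a known tissue or role were counted next, beside 6.29% for ovaries only and 14.7% for testes only over all names. The ovary miRNAs of *Drosophila* had 8 names in the gonads, and both gonads listed all 8, so the tissue label was not visible in detection of these names. Of the 9 miRNAs in that group, 7 were listed in the series. The testis miRNAs of *Drosophila* had 8 names in the gonads from 13 of 22 miRNAs listed. Of these, 3 were in both gonads (miR-959-3p, miR-961-5p and miR-976-3p), 3 in ovaries only and 2 in testes only, so this group did not mark the testis library either. The *Drosophila* testis markers were thus found at 6 names in ovaries and 5 in testes.

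Markers of other cell types were listed in both gonads. The muscle miRNA miR-1 had both arms in both, and miR-133 was in no library. Of 20 names of the nervous system and sense organs, 14 were in ovaries and 17 in testes, with 11 in both, 3 in ovaries only (15%) and 6 in testes only (30.0%). The 3 include miR-124-3p, whose miRNA both gonads listed as miR-124. They also include miR-219, whose number an entry marked New on another contig carried in testes. The 6 include miR-193-3p and miR-932-3p, whose other arm both gonads listed. The group was drawn up with earlier results of these data known. Female and male bodies listed 22 and 25 names of this group. Which cells of the dissected gonad carried these names cannot be told from the lists.

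The group of germline stem cells and oogenesis, with miR-7, miR-184, miR-278, miR-9a, miR-8, miR-14, miR-275, miR-305, miR-306, miR-79 and miR-34, had 19 names and all were in both gonads and both bodies. The 4 names of the miR-12 cluster were in both gonads. The let-7 complex shared 6 of 7 names and lacked miR-100-3p in ovaries. The Hox region shared 5 of 7, with miR-iab-4-3p and miR-iab-8-5p in testes only. The K-box miRNAs repress Notch target genes in *Drosophila* through the seed ATCACAG. In the gonads 8 names had this seed, and all 8 were in both. Counted over both arms of these hairpins, 12 of 13 names were shared, and the exception, miR-11-5p, was an opposite arm with another seed. The hairpins of the miR-92 and miR-310 family shared 2 of 5 names, and miR-92b-5p was again an opposite arm.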

How the data were processed

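Small RNA of 1 library each of ovaries, testes, female bodies and male bodies was sequenced on an Illumina instrument. The authors trimmed adaptors, dropped junk reads, filtered against mRNA, Rfam and Repbase, and compared what was left with miRBase, allowing at most 1 mismatch. The deposited lists hold names, sequences, lengths in nt and precursor positions in bases, with no counts. Entries with status Yes or Diff were used, and names differing only by copy number were merged. No test was made, and intervals are 95% exact binomial (Clopper-Pearson). Members and lists were chosen with earlier results of these data known. Named miRNAs were all names of 1 gonad, miRNAs with differing arms, shared names with a changed first base or seed or at least 3 more forms in 1 gonad, and list members. Names of other differing forms were added after their values were seen. The functions were tested on simulated data (611 of 611 cases). The table of predicted miRNAs, which gives no library, and the RefSeq gene table were not used. Python 3.11.15, pandas 2.3.3, numpy 2.4.6, scipy 1.17.1 and matplotlib 3.10.9 were used. Alternatives were other statuses, placements, name forms, sequences, seeds and families.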

Additional observations from a re-analysis of the deposited data

Results flagged for a closer look

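Entries marked New, which the comparison of the gonads left out, also differed between the lists. Of 34 names marked New in the gonads, 6 (17.6%) were in both, 13 were in ovaries only and 15 in testes only. In no body were 9 of the 13 and 8 of the 15. They were flagged as entries outside the main lists and rest on 1 library each. The testis count holds some sequences under more than 1 name. The names mir-2491-p3 and mir-2491-p5 had the same sequence, as did mir-4948-p3 and mir-4948-p5. The sequence of mir-2494-p3 (20 nt) began with all of that of mir-2494-p5 (19 nt). Among the ovary names was mir-318-p5, tCAGTGGGctttgtttatca, with the seed of the ovary form of miR-318-3p, and among the testis names were mir-963-p3 and mir-963-p5, under which the same sequence, tCTAATCTtaaacaaggaa, was listed at different contigs. The New names also included mir-219-p3 in testes and mir-983-1-p3 in ovaries. Entries marked Yes or Diff with these miRNA numbers were in the other gonad only, and at other positions.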

How the results depend on the processing

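Of 63 values under 10 alternative settings, 47 stayed within 1.5 times the reported value and 16 moved further. In all 10 settings more names were in testes only than in ovaries only. With entries marked New, 22 were in ovaries only and 36 in testes only. With entries marked Yes alone, ovaries listed 50, testes 54 and both 47, with 3 in ovaries only and 7 in testes only. On contigs alone, 11 names were in testes only against 7 in ovaries only, and 1 shared name had more forms in ovaries and 2 in testes. The 7 include miR-5-3p and miR-989-3p, which testes listed under 2R and not on a contig. Counted as distinct sequences, 15 were in ovaries only and 34 in testes only. Counted as families, ovaries listed 81, testes 86 and both 74, with 12 in testes only. These settings count fewer or other units by construction. No paired analysis was possible and no library could be left out, since each gonad had 1 library. The reads behind an entry were not at hand, so depth limits every absence from a list.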
